A study of Mus musculus with 6 samples.

Results

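The genes described here build and mark the motile cilia of the ependyma, the ciliated epithelium that lines the brain ventricles beside the subependymal zone. They are a named list of 44 genes, chosen by symbol, out of 32564 genes summed from the deposited files, and all 44 were found. Earlier results of these data were known when the list was drawn up. It holds 4 transcription factors, 9 dynein chains, 2 radial spoke genes, 7 central apparatus genes, 6 assembly factors, rulers and tethers, 7 tektins and doublet proteins, 5 other cilium genes and 4 other ependymal markers.

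The study asked how miR-204, a microRNA released by the choroid plexus, acts on neural stem cells of the adult brain. RNA was sequenced from cells labelled as quiescent neural stem cells, sorted by flow cytometry from the subependymal zone. The antagomir group holds 3 libraries from mice injected into the ventricle with an antisense oligonucleotide against miR-204. The vehicle group holds 3 libraries from mice injected with aCSF (artificial cerebrospinal fluid). All mice carried the gfap:GFP transgene, in which the promoter of the glial gene Gfap drives GFP, were 3 months old, of the strain labelled C56BL/6J, and were sampled 3 days after injection. A control oligonucleotide is not named in the labels, so the injected oligonucleotide itself and the blocking of miR-204 cannot be told apart. Whether each replicate is its own animal or a pool is not stated, so p-values cover only the variation among these 6 libraries, which may be technical.

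A motile cilium beats because dynein arms slide the outer microtubule doublets of its shaft, the axoneme, against each other. Radial spokes and a central pair of microtubules with its projections control that motion, and tektins and inner proteins stiffen the doublets. FOXJ1 and the RFX factors switch on the genes for these parts in ependymal cells, whose beating cilia move cerebrospinal fluid.

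RFX proteins bind a DNA element called the X-box, an inverted pair of half-sites, and the promoters of some list genes held it. RefSeq promoter sequences (GRCm38.p6, 250 bases before to 50 after the start) were at hand for 39 of the 44 genes, in 47 promoters. The half-site GTTGCC, searched on both strands, was in a promoter of 21 of these 39 genes (53.8%), against 14.1% of all 27025 genes in the table. A pair was searched as GTTGCC, a gap of 0 to 3 bases and GGCAAC, with up to 1 mismatch in the second element, on both strands. It was found in 10 of 39 cilium genes (25.6%, exact 95% confidence interval 13 to 42.1%, counting error only), against 1.38% of all genes in the table. Every pair also counts as a half-site. The forkhead core GTAAACA was in 3 of 39 cilium genes (7.69%), against 4.05% of all genes. Among promoters, 12.5% of all 32851 held the half-site, 1.2% the pair and 3.65% the forkhead core. The median GC content was 54.3% in the 47 cilium promoters and 52.7% in all promoters. A match is a description of the letters and says nothing of whether a factor was bound. The pairs within 250 bases before the start are shown because a larger share of list genes than of all genes held one. Capitals mark the pair with its gap, and every pair shown has 1 mismatch in its second element.

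Ccdc153: gttttccaGTTGCCTGGACAACgtgcagta
Cfap44: ttactgcgGTTGCCATAGCAACgtccctcc
Dnai2: gtttaccaGTTGCCTAGCAACcctggccgg
Dynlrb2: cctgcctgGTTGCCTAGCAACgggggaagc
Fam183b: caagaggaacatccGTTGCCTGGAAACtgt
Hydin: accatctGTTGCCACAGCAACcgcagagtg
Kif9: ggcttcctGTTGCCATGGCGACtgtgtaca
Rfx2: ggtaaccGTTGCCGGGCGCAACgccccgcc
Tekt2: cggctctgGTTGCCGAGCAACcgccccctc

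The Ccdc153 stretch is chr9:44240517-44240546 on the plus strand, and its pair begins 152 bases before the start. The Cfap44 stretch is chr16:44394764-44394793 on the minus strand, and its pair begins 27 bases before the start. The Dnai2 stretch is chr11:114727377-114727406 on the minus strand, and its pair begins 33 bases before the start. The Dynlrb2 stretch is chr8:116504956-116504985 on the plus strand, and its pair begins 51 bases before the start. The Fam183b stretch is chr11:58801961-58801990 on the minus strand, and its pair begins 16 bases before the start. The Hydin stretch is chr8:110266947-110266976 on the minus strand, and its pair begins 21 bases before the start. The Kif9 stretch is chr9:110476959-110476988 on the plus strand, and its pair begins 27 bases before the start. The Rfx2 stretch is chr17:56831102-56831131 on the minus strand, and its pair begins 116 bases before the start. The Tekt2 stretch is chr4:126325697-126325726 on the plus strand, and its pair begins 29 or 71 bases before the start, by the promoter used. The 10th gene with a pair was Spef2, whose pair lay partly or wholly after the start. The genes shown cover transcription factors (Rfx2 itself), dynein chains (Dnai2, Dynlrb2), the central apparatus (Hydin, Kif9), a tether (Cfap44) and doublet proteins (Tekt2, Fam183b).

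The microRNA blocked in the study is shown so that its seed, bases 2 to 8 in capitals, can be set against the cilium genes.

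mmu-miR-204-5p: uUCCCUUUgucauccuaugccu

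It lies at chr19:22750610-22750631 on the plus strand in RefSeq's GRCm38.p6. The 7 bases that pair with the seed, AAAGGGA, were in the annotated 3′ UTR of the most abundant transcript in 2 of 43 cilium genes with such a UTR (4.65%), against 1867 of 13809 genes tested (13.5%). The cilium genes' 3′ UTRs were short, with a median of 217 bases against 883 bases over all genes tested. The 2 genes were Ccdc39 on chromosome 3 and Dnah5 on chromosome 15, whose sites are shown with the seed match in capitals.

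Ccdc39: gagaaaagaacAAAGGGAgttttgtgtttg
Dnah5: tgagggattccAAAGGGAtttttattaact

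Library totals were 14866453 to 19694409 estimated counts. Across 15012 genes, edgeR called 0 at an adjusted p of 0.05 (Benjamini-Hochberg; 0% called), and no adjusted p was below 0.949. Before adjustment 616 genes (4.1%) had a p under 0.05, and DESeq2 called 5 of 20802 genes, none of them a cilium gene. Before the cilium genes are set out, 2 libraries stand apart in markers of other cells. Antagomir replicate 1 had the highest summed level of 10 neuroblast markers, and vehicle replicate 1 had the highest summed level of 10 microglia markers. Their values are given below with the other marker lists.

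Markers of the labelled cell type were read first. The 14 astrocyte and quiescent stem cell markers summed to 9135, 6865 and 9004 TPM in antagomir replicates 1, 2 and 3, against 9065, 9225 and 9129 TPM in vehicle replicates 1, 2 and 3. Gfap, whose promoter drives the sorted reporter, was at 164, 127 and 207 TPM in antagomir replicates 1, 2 and 3, against 362, 246 and 126 TPM in vehicle replicates 1, 2 and 3. TPM, a share of all transcripts in a library, is corrected for transcript length, so levels of different genes can be compared. On the same scale the 44 cilium genes summed to 5811, 10588 and 9065 TPM in antagomir replicates 1, 2 and 3, against 7820, 10356 and 10664 TPM in vehicle replicates 1, 2 and 3. The cilium sum was below the astrocyte and stem cell sum in antagomir replicate 1 and vehicle replicate 1 and above it in the other 4 libraries. The 2 sums run over 44 and 14 chosen genes, so which is larger does not measure the share of either cell type. In sorted bulk samples, a different number of ependymal cells and a different amount of RNA per cell cannot be told apart.

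By mean TPM over the 6 libraries, 26 of the 44 genes were above 100 TPM, 15 were between 10 and 100 TPM, and 3 were under 10 TPM. The highest were Rarres2 at 1069, Tmem212 at 937, Rsph1 at 593 and Dynlrb2 at 590.3 TPM. The 3 lowest were Dnah11 at 9.64, Mcidas at 0.653 and Spag6 at 0.199 TPM. Genes with longer transcripts had lower TPM: across the 44 genes Spearman's rho between the length of the main transcript and mean TPM was -0.757, a description over genes that share the same 6 libraries.

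**Figure D1:**
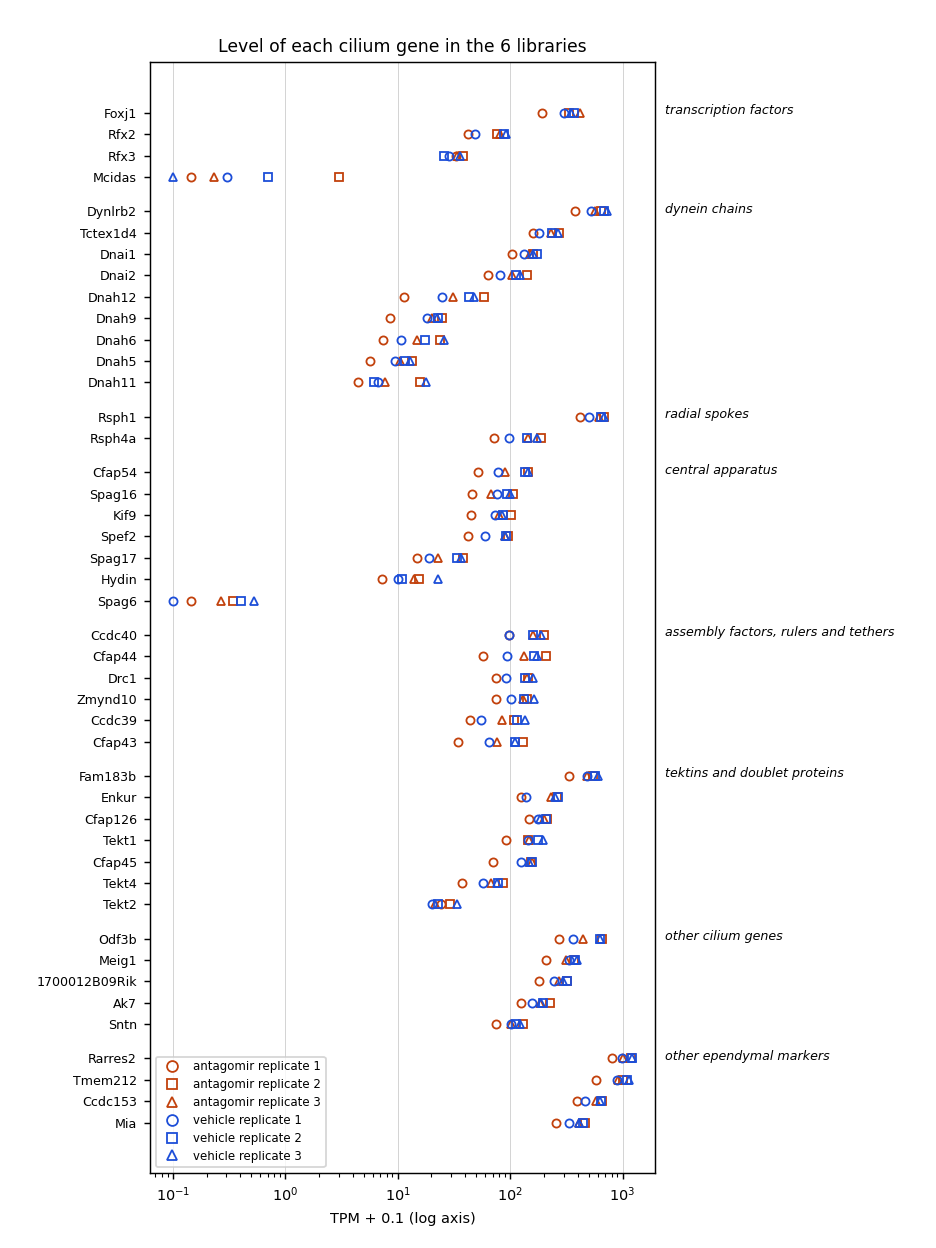
Level of each of the 44 cilium genes, in TPM + 0.1 on a log axis, with 1 point per library (antagomir in orange, vehicle in blue; the symbol gives the replicate), grouped by cilium part. Most genes sit above 10 TPM in all libraries, Mcidas and Spag6 sit far below, and the orange circle of antagomir replicate 1 is the leftmost point of most rows.

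The transcription factors differed widely in level. Foxj1 (ENSMUSG00000034227.7), on chromosome 11 from 116330704 to 116335399 of GRCm38 on the minus strand, encodes the forkhead factor that switches on motile cilium genes. Foxj1 had 193, 336 and 422 TPM in antagomir replicates 1, 2 and 3, against 301, 374 and 349 TPM in vehicle replicates 1, 2 and 3. The groups overlapped, with both the lowest and the highest Foxj1 library in the antagomir group, and the log2 fold change of antagomir over vehicle was -0.17 (SE 0.26, adjusted p = 0.956). Leaving out 1 library moved the Foxj1 fold change to between -0.43 (no antagomir replicate 3) and 0.09 (no antagomir replicate 1). Rfx2 (ENSMUSG00000024206.15), on chromosome 17 from 56775897 to 56831013 of GRCm38 on the minus strand, encodes a partner RFX factor. Rfx2 had 42.2, 77.1 and 80.6 TPM in antagomir replicates 1, 2 and 3, against 48.9, 88.9 and 92.1 TPM in vehicle replicates 1, 2 and 3. Rfx2 was low in replicate 1 of both groups, and its log2 fold change was -0.27 (SE 0.31, adjusted p = 0.953). With 1 library left out, Rfx2 lay between -0.50 (no vehicle replicate 1) and -0.02 (no antagomir replicate 1) on the log2 scale. Rfx3 (ENSMUSG00000040929.17), on chromosome 19 from 27761721 to 28011166 of GRCm38 on the minus strand, encodes the related factor RFX3. Rfx3 had 32.6, 38.1 and 33.4 TPM in antagomir replicates 1, 2 and 3, against 28.8, 25.7 and 35.5 TPM in vehicle replicates 1, 2 and 3. Rfx3 varied least of the 3 and did not share the low value of antagomir replicate 1. Its log2 fold change was 0.03 (SE 0.23, adjusted p = 0.992), and it turned negative when antagomir replicate 3 (-0.03), vehicle replicate 1 (-0.08) or vehicle replicate 2 (-0.11) was left out. With vehicle replicate 3 left out it was 0.34. It was also -0.03 where only protein-coding transcripts were summed.

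Mcidas encodes multicilin, which starts the program that multiplies centrioles in cells about to become multiciliated. Mcidas (ENSMUSG00000074651.3), on chromosome 13 from 112993845 to 113000394 of GRCm38 on the plus strand, was at the edge of detection, with 1, 57 and 3 counts in antagomir replicates 1, 2 and 3, against 5, 13 and 0 counts in vehicle replicates 1, 2 and 3. Most of the counts came from antagomir replicate 2. With all 6 libraries the gene did not pass the filter on low counts and was not tested. It passed without antagomir replicate 1 or 3 or vehicle replicate 1 or 3, and entered its lists there. Its log2 fold changes in those edgeR runs were 2.46, 2.42, 1.75 and 1.30, with unadjusted p of 0.172 to 0.462. A library with 0 counts allows a level of up to 3 counts, which is 0.152 CPM (counts scaled to a common library total) in vehicle replicate 3. Of 21 genes of the multiciliation program listed beside it, which include Foxj1, Rfx2, Rfx3 and Mcidas, 18 were tested, 10 had a negative log2 fold change (55.6% against 50.9% of all genes tested) and 0 had an unadjusted p under 0.05 in edgeR (against 4.1%). Their median was -0.06, which turned to 0.14 without antagomir replicate 1, to 0.06 without vehicle replicate 3 and to 0.01 with no filter on low counts.

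Among the dynein chains, the heavy chains, the motors themselves, had far lower TPM than the smaller subunits. The outer arm heavy chains Dnah5, Dnah9 and Dnah11 and the heavy chains Dnah6 and Dnah12 averaged 9.64 to 35.9 TPM. The outer arm intermediate chains Dnai1 and Dnai2 averaged 147 and 104 TPM, and the light chain genes Tctex1d4 and Dynlrb2 averaged 224 and 590.3 TPM. Dynlrb2 (ENSMUSG00000034467.7), on chromosome 8 from 116504974 to 116515915 of GRCm38 on the plus strand, encodes a roadblock-type light chain. Dynlrb2 had 378, 649 and 566 TPM in antagomir replicates 1, 2 and 3, against 528, 686 and 735 TPM in vehicle replicates 1, 2 and 3. The Dynlrb2 groups overlapped, with antagomir replicate 1 well below the rest, and the log2 fold change was -0.37 (SE 0.22, adjusted p = 0.949). Leaving out 1 library moved the Dynlrb2 fold change to between -0.53 (no antagomir replicate 2) and -0.18 (no antagomir replicate 1). All 9 dynein chains had negative log2 fold changes (against 50.9% of all genes tested), with a median of -0.21. In edgeR 0 of them had an unadjusted p under 0.05, against 4.1% of all genes. Without antagomir replicate 1, 1 of the 9 was negative (11.1% against 51.6% of all genes). Dnah12 spread most, at 11.4, 58 and 31 TPM in antagomir replicates 1, 2 and 3, against 24.5, 43.1 and 47.4 TPM in vehicle replicates 1, 2 and 3. Its lowest and highest libraries were both antagomir libraries.

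The radial spoke head genes were Rsph1 and Rsph4a. Rsph1 (ENSMUSG00000024033.10), on chromosome 17 from 31255019 to 31277383 of GRCm38 on the minus strand, had 418, 689.9 and 619 TPM in antagomir replicates 1, 2 and 3, against 504, 644 and 679.5 TPM in vehicle replicates 1, 2 and 3. Antagomir replicate 1 was again the lowest and the groups overlapped, with a log2 fold change of -0.15 (SE 0.21, adjusted p = 0.953). With 1 library left out, Rsph1 lay between -0.30 (no antagomir replicate 2) and 0.03 (no antagomir replicate 1) on the log2 scale. Rsph4a averaged 136 TPM, with 72.5, 188 and 144 TPM in antagomir replicates 1, 2 and 3, against 96.8, 142 and 174 TPM in vehicle replicates 1, 2 and 3. It too was lowest in antagomir replicate 1 and highest in antagomir replicate 2.

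The central apparatus genes ranged from 13.3 TPM for Hydin, a giant protein of a central pair projection, to 107 TPM for Cfap54, apart from Spag6. Cfap54 (ENSMUSG00000020014.17), on chromosome 10 from 92775619 to 93081618 of GRCm38 on the minus strand, had 51.4, 145 and 89.5 TPM in antagomir replicates 1, 2 and 3, against 77.4, 135 and 144 TPM in vehicle replicates 1, 2 and 3. Replicate 1 was the lowest of each group and the groups overlapped, with a log2 fold change of -0.31 (SE 0.30, adjusted p = 0.9503). Leaving out 1 library moved the Cfap54 fold change to between -0.63 (no antagomir replicate 2) and -0.05 (no antagomir replicate 1). Spag16, Spag17 and Spef2, which encode other central apparatus proteins, and the kinesin gene Kif9 averaged 81.4, 27.5, 78.2 and 78.5 TPM. All 6 tested central apparatus genes had negative log2 fold changes (median -0.23), against 50.9% of all genes tested. Without antagomir replicate 1, 3 of the 6 were negative (50% against 51.6% of all genes). Spag6 itself (chromosome 2) had 1, 5 and 1 counts in antagomir replicates 1, 2 and 3, against 0, 7 and 3 counts in vehicle replicates 1, 2 and 3, and was not tested. Its close copy Spag6l (chromosome 16) had 1820, 3728 and 4261 counts in antagomir replicates 1, 2 and 3, against 3521, 3798 and 4355 counts in vehicle replicates 1, 2 and 3. Reads shared by the copies were divided by kallisto's model, so the split between Spag6 and Spag6l is uncertain. At 163.9 TPM on average, Spag6l held nearly all the counts of the pair, and its lowest library was antagomir replicate 1.

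The assembly group holds Zmynd10, needed to assemble dynein arms in the cytoplasm, Ccdc39 and Ccdc40, which form the ruler that spaces arms and spokes, Drc1 of the nexin-dynein regulatory complex, and Cfap43 and Cfap44, which tether an inner dynein. Ccdc40 (ENSMUSG00000039963.19), on chromosome 11 from 119228572 to 119265238 of GRCm38 on the plus strand, had 96.8, 199 and 159.8 TPM in antagomir replicates 1, 2 and 3, against 97.6, 159 and 187 TPM in vehicle replicates 1, 2 and 3. Replicate 1 was the lowest of each group, at nearly the same level, and the log2 fold change was 0.05 (SE 0.28, adjusted p = 0.991). It turned to -0.16, -0.03 and -0.11 without antagomir replicate 2, antagomir replicate 3 and vehicle replicate 1, and was 0.29 with antagomir replicate 1 left out and 0.21 with vehicle replicate 3 left out. Its partner Ccdc39, one of the 2 genes with a miR-204-5p seed match, had 44.2, 108 and 84.6 TPM in antagomir replicates 1, 2 and 3, against 55.4, 114 and 137 TPM in vehicle replicates 1, 2 and 3. Ccdc39 also had its lowest library in antagomir replicate 1 and the groups overlapped. Dnah5, the other gene with a seed match, had 5.54, 13.3 and 10.4 TPM in antagomir replicates 1, 2 and 3, against 9.41, 11.6 and 12.7 TPM in vehicle replicates 1, 2 and 3, again overlapping. Of the 6 genes in the assembly group 5 had negative log2 fold changes (83.3% against 50.9% of all genes, median -0.23). All 6 were lowest in antagomir replicate 1, against 25.1% of all genes. Without that library 2 of the 6 were negative (33.3% against 51.6% of all genes).

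Among the tektins and doublet proteins, Tekt1 gave the smallest p of all cilium genes. Tekt1 (ENSMUSG00000020799.16), on chromosome 11 from 72344722 to 72362442 of GRCm38 on the minus strand, encodes a filament protein of the doublet microtubules. Tekt1 had 67.0, 106 and 107 CPM (here with TMM-scaled library sizes) in antagomir replicates 1, 2 and 3, against 111, 134 and 153 CPM in vehicle replicates 1, 2 and 3. In CPM every antagomir library was below every vehicle library, by a narrow margin between antagomir replicate 3 and vehicle replicate 1. In TPM the groups overlapped, at 91.7, 144 and 146 TPM in antagomir replicates 1, 2 and 3, against 143, 178 and 196 TPM in vehicle replicates 1, 2 and 3. The log2 fold change of Tekt1 was -0.50 (SE 0.22, unadjusted p = 0.048, edgeR adjusted p = 0.949), so it did not pass after adjustment. Without antagomir replicate 1 it was -0.32 with an unadjusted p of 0.107, without vehicle replicate 2 -0.50 with 0.0987 and without vehicle replicate 3 -0.38 with 0.154. Without each of the other 3 libraries the unadjusted p was 0.0265 to 0.046. Fam183b, the most abundant gene of the group, had 332, 544 and 480.4 TPM in antagomir replicates 1, 2 and 3, against 483, 571 and 601 TPM in vehicle replicates 1, 2 and 3. Fam183b (ENSMUSG00000049154.11), on chromosome 11 from 58792797 to 58801960 of GRCm38 on the minus strand, overlapped between the groups by 1 antagomir library, with a log2 fold change of -0.36 (SE 0.20, adjusted p = 0.949). With 1 library left out, Fam183b lay between -0.51 (no antagomir replicate 2) and -0.19 (no antagomir replicate 1) on the log2 scale. Tekt2 was one of the few genes out of step, at 24.1, 29.4 and 21.3 TPM in antagomir replicates 1, 2 and 3, against 20, 22.6 and 33.9 TPM in vehicle replicates 1, 2 and 3. Its lowest library was vehicle replicate 1. Tekt4, Cfap45, Cfap126 and Enkur, which encode another tektin and proteins bound to the doublets, averaged 67.1, 135, 189 and 212 TPM and were each lowest in antagomir replicate 1.

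The remaining cilium genes include Ak7, an adenylate kinase of cilia, Sntn, whose product sentan lies at the ciliary tip, and 1700012B09Rik, which averaged 179.6, 107 and 273 TPM. Odf3b, named for a sperm tail fibre protein, was the highest in this group. Odf3b (ENSMUSG00000047394.8), on chromosome 15 from 89377449 to 89379282 of GRCm38 on the minus strand, had 272, 656 and 444 TPM in antagomir replicates 1, 2 and 3, against 365, 627 and 633 TPM in vehicle replicates 1, 2 and 3. Odf3b ranged widely within both groups, replicate 1 being the lowest of each, and its log2 fold change was -0.31 (SE 0.33, adjusted p = 0.9503). Leaving out 1 library moved the Odf3b fold change to between -0.66 (no antagomir replicate 2) and -0.05 (no antagomir replicate 1). Meig1, known in mice for its part in building the sperm tail, had 207, 372 and 314 TPM in antagomir replicates 1, 2 and 3, against 337, 378 and 396 TPM in vehicle replicates 1, 2 and 3. Meig1 (ENSMUSG00000026650.15), on chromosome 2 from 3409043 to 3422648 of GRCm38 on the minus strand, was below all vehicle libraries in 2 of 3 antagomir libraries, with a log2 fold change of -0.38 (SE 0.22, adjusted p = 0.949). With 1 library left out, Meig1 lay between -0.57 (no antagomir replicate 2) and -0.18 (no antagomir replicate 1) on the log2 scale.

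The 4 other ependymal markers carried 31.4 to 35% of the list's summed TPM in the 6 libraries. Rarres2 encodes the secreted chemoattractant precursor chemerin, and its gene ENSMUSG00000009281.6 lies on chromosome 6 from 48569696 to 48572789 of GRCm38. It had 806, 1181 and 1012 TPM in antagomir replicates 1, 2 and 3, against 992, 1203 and 1219.9 TPM in vehicle replicates 1, 2 and 3. Rarres2 varied little between libraries, and its log2 fold change was -0.25 (SE 0.19, adjusted p = 0.949). Leaving out 1 library moved the Rarres2 fold change to between -0.41 (no antagomir replicate 2) and -0.10 (no antagomir replicate 1). Tmem212 encodes a membrane protein that marks ependymal cells, and its gene ENSMUSG00000043164.3 lies on chromosome 3 from 27866066 to 27896368 of GRCm38. It had 582, 1015 and 908 TPM in antagomir replicates 1, 2 and 3, against 889.6, 1091 and 1136 TPM in vehicle replicates 1, 2 and 3. Tmem212 was lowest in antagomir replicate 1, and the groups overlapped, with a log2 fold change of -0.39 (SE 0.22, adjusted p = 0.949). With 1 library left out, Tmem212 lay between -0.55 (no antagomir replicate 2) and -0.19 (no antagomir replicate 1) on the log2 scale. Ccdc153, an ependymal marker that encodes a subunit of the nexin-dynein regulatory complex, and Mia, which encodes a secreted protein, averaged 562 and 387 TPM with the same lowest library.

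Over the list, 42 of the 44 genes passed the filter on low counts, and each had at least 207 counts in every library. In edgeR 0 of the 42 were called, as for all genes (0%), and 1 of 42, Tekt1, had an unadjusted p under 0.05, a share of 2.38% against 4.1% of all genes tested. Without antagomir replicate 2 the count was 6 of 42, against 4.12% of all genes, and without vehicle replicate 1 it was 2 of 43, against 7.37%. It was 1 of 43 without antagomir replicate 3, against 549 of 15433 genes. In edgeR it was 0 of 43 without antagomir replicate 1, against 519 of 15460 genes. It was 0 of 42 without vehicle replicate 2, against 664 of 15400 genes. Without vehicle replicate 3 it was 0 of 43, against 495 of 15393 genes. Wherever 43 cilium genes are counted, the added gene was Mcidas. A p that misses the threshold does not show that the levels were equal. Tekt1 was also the 1 gene of 42 whose groups did not overlap in CPM with the antagomir group lower, against 5.45% of all genes. None of the 42 had groups apart with the antagomir group higher, against 5.07% of all genes. Of the 42 genes 40 had a negative log2 fold change, against 50.9% of all genes tested, the exceptions being Rfx3 and Ccdc40. The median was -0.21, with a range of -0.50 to 0.05, against a median of -0.01 over all genes.

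The direction turned without 1 library. Antagomir replicate 1 was the lowest of the 6 libraries in CPM for 40 of 42 genes, the exceptions being Rfx3 and Tekt2, against 25.1% of all genes. Its CPM over the mean of the other 5 libraries had a median of 0.552 over the 42 genes and ranged from 0.27 for Dnah12 to 0.957 for Tekt2. Vehicle replicate 3 was the highest library for 26 of 42 genes, against 20.4% of all genes. Antagomir replicate 2 was the highest for 12, a count for which the share over all genes was not computed. Without antagomir replicate 1, 16 of 43 cilium genes had a negative log2 fold change, against 51.6% of all genes, and the median was 0.04. The medians of 6 of the 8 parts then turned positive, at 0.08 for transcription factors, 0.07 for dynein chains, 0.12 for radial spokes, 0.04 for the central apparatus, 0.07 for assembly factors and 0.002 for tektins and doublet proteins. The other cilium genes and the other ependymal markers kept negative medians of -0.05 and -0.04. Without vehicle replicate 3 the median was -0.09 and 31 of 43 were negative, against 48.3% of all genes. The median was -0.43 without antagomir replicate 2 and -0.34 without vehicle replicate 1.

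**Figure D2:**
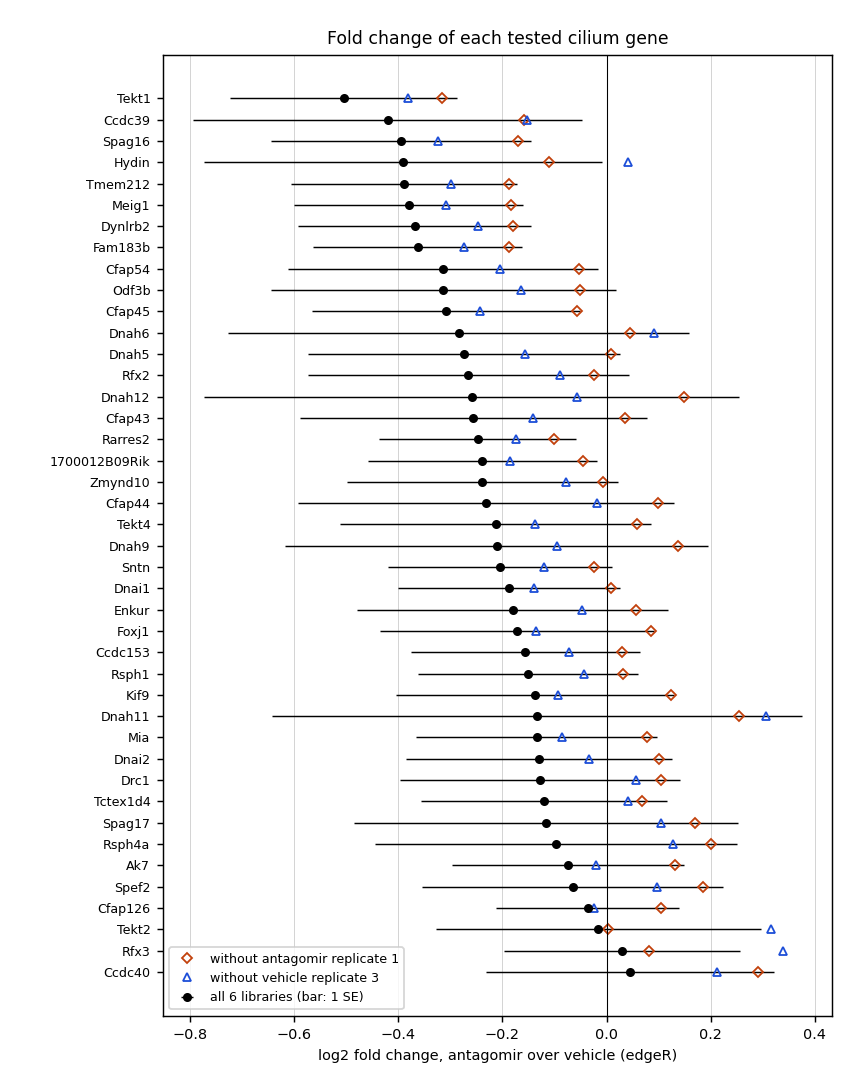
Log2 fold change of antagomir over vehicle for each of the 42 tested cilium genes with all 6 libraries (black, bars 1 standard error), without antagomir replicate 1 (orange diamonds) and without vehicle replicate 3 (blue triangles). Of the black points 40 lie left of 0, from -0.50 for Tekt1, and the orange diamonds lie to their right and straddle 0.

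The genes moved together from library to library. The median over the 42 genes of log2 CPM minus each gene's mean was -0.70, 0.28 and 0.03 in antagomir replicates 1, 2 and 3, against -0.17, 0.21 and 0.37 in vehicle replicates 1, 2 and 3. Replicates of the antagomir group therefore lay further apart than the group averages of these medians, -0.13 in antagomir and 0.14 in vehicle. A cilium gene's log2 CPM had a median SD of 0.403 across the libraries, against 0.337 over all genes, and 0.142 once the library medians were taken off. Zmynd10 and Dnai2 kept closest to the common course, with residual SDs of 0.0434 and 0.0609. Dnah12 (0.479), Dnah11 (0.442), Rfx3 (0.391) and Tekt2 (0.383) kept least to it.

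**Figure D3:**
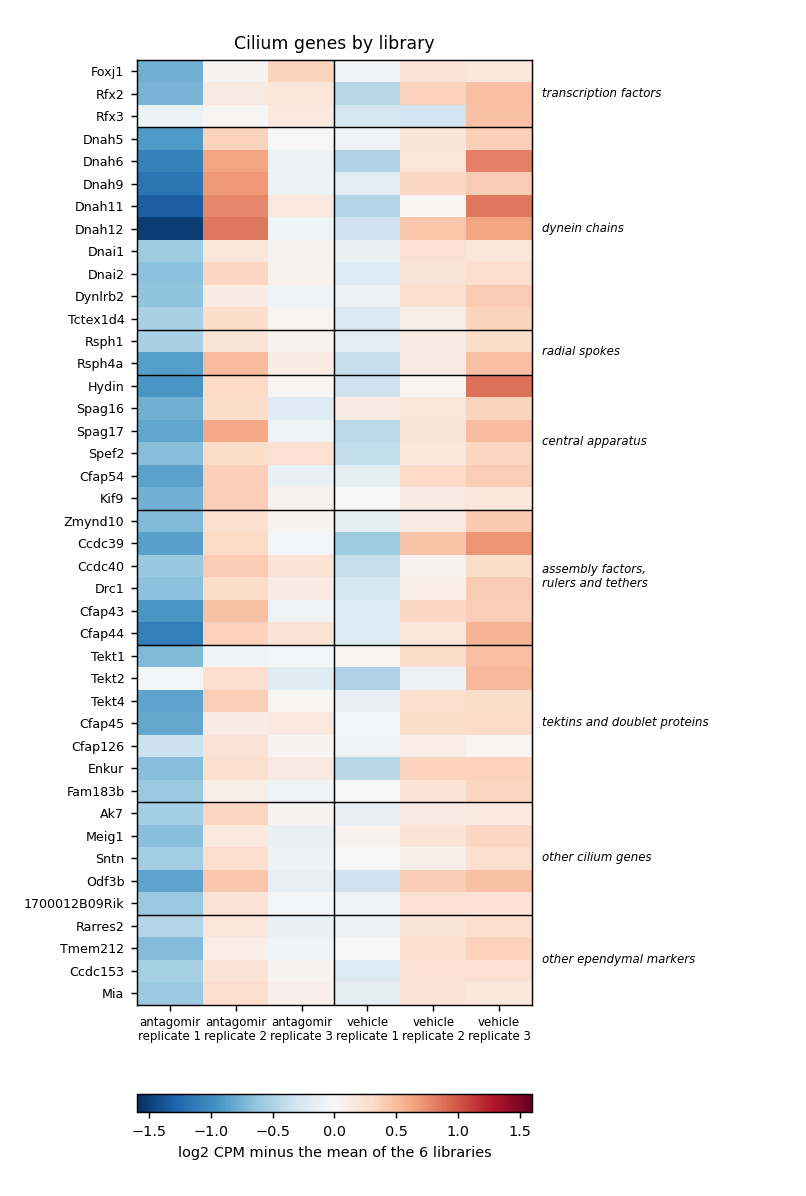
Log2 CPM of each of the 42 tested cilium genes minus its mean over the 6 libraries (blue lower, red higher), with antagomir libraries left of vehicle libraries and genes grouped by cilium part. The column of antagomir replicate 1 is blue in nearly every row, with a median of -0.70, vehicle replicate 1 is pale blue, and antagomir replicate 2 and vehicle replicates 2 and 3 are mostly red.

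The parts kept similar shares of the list while its total differed between libraries. Dynein chains made up 12.5 to 13.2% of the list's summed TPM in the 6 libraries, radial spokes 7.6 to 8.44% and tektins and doublet proteins 13.5 to 14.6%. Transcription factors made up 4.61, 4.29 and 5.91% in antagomir replicates 1, 2 and 3, against 4.85, 4.72 and 4.47% in vehicle replicates 1, 2 and 3. The central apparatus made up 3.55, 4.75 and 4% in antagomir replicates 1, 2 and 3, against 4.04, 4.37 and 4.47% in vehicle replicates 1, 2 and 3. Assembly factors made up 6.58, 8.82 and 8.03% in antagomir replicates 1, 2 and 3, against 6.47, 7.89 and 8.75% in vehicle replicates 1, 2 and 3. The shares of the central apparatus and assembly groups were lowest in replicate 1 of both groups.

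In 4 of the 6 libraries long cilium genes lay further from their means than short ones. In antagomir replicate 1 the median deviation was -1.08 for the 9 tested genes with a main transcript over 6 kb, against -0.59 for the 16 of at most 1.5 kb (log2 CPM). In the same library all genes of those lengths had medians of 0.02 and -0.03. The opposite order was seen in antagomir replicate 2, at 0.62 for the long and 0.22 for the short cilium genes, and in vehicle replicate 3, at 0.54 and 0.34. Spearman's rho between length and deviation over the 42 genes was -0.632, 0.607 and 0.226 in antagomir replicates 1, 2 and 3, against -0.465, -0.173 and 0.517 in vehicle replicates 1, 2 and 3. Over all genes tested it lay between -0.103 and 0.0886 in every library. These are descriptions over genes that share libraries, with no test. For 23 of the 44 genes 1 transcript held over 90% of the counts, and for 4 (Spef2, Cfap54, Cfap126 and Meig1) no transcript reached 50%, so their length is less certain.

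**Figure D4:**
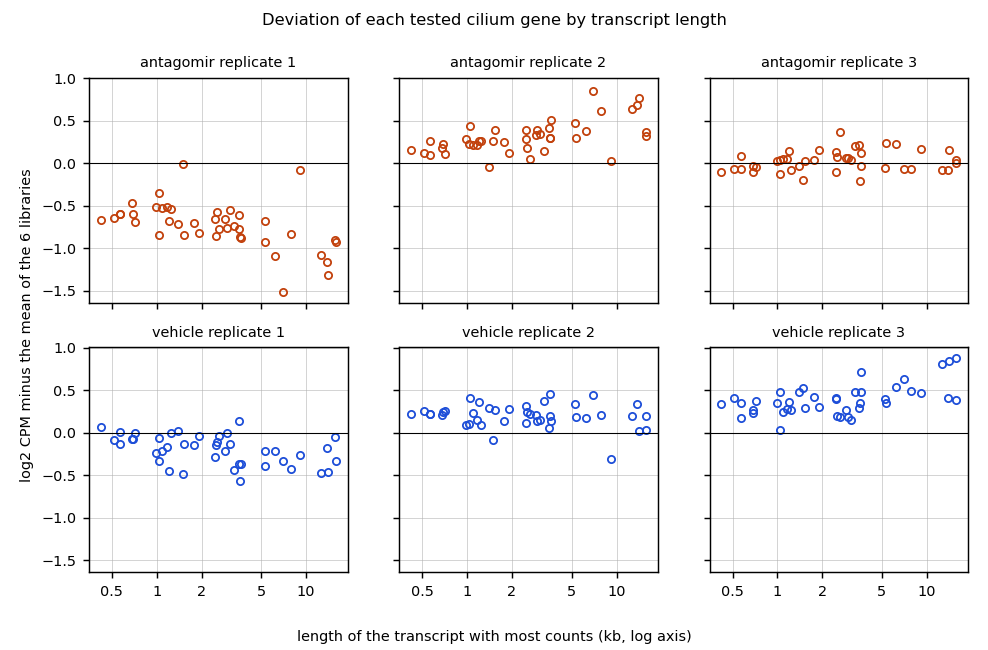
Deviation of each of the 42 tested cilium genes (log2 CPM minus its mean over the 6 libraries) against the length of its main transcript in kb on a log axis, with antagomir libraries in the top row and vehicle libraries in the bottom row. Long genes lie lowest in antagomir replicate 1 (Spearman's rho -0.632) and highest in antagomir replicate 2 (0.607) and vehicle replicate 3 (0.517).

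Genes of the motile cilium outside the list followed the same course. Of 76 such genes 75 were tested. In edgeR 0 were called, as for all genes (0%), and 0 had an unadjusted p under 0.05, against 4.1% of all genes. A negative log2 fold change was seen in 65 (86.7% against 50.9% of all genes, median -0.18). Antagomir replicate 1 was the lowest library for 69 of the 75 (92% against 25.1% of all genes). Without it 21 of 75 were negative (28% against 51.6% of all genes) and the median was 0.05. The highest in level were Nme5, a spoke gene, with 182, 319.9 and 271 TPM in antagomir replicates 1, 2 and 3, against 226, 311 and 360.0 TPM in vehicle replicates 1, 2 and 3, and the axonemal genes Spag8 and Drc3. Spag8 had a log2 fold change of -0.22 (SE 0.31, adjusted p = 0.953) and Drc3, of the nexin-dynein regulatory complex, one of -0.05 (SE 0.23, adjusted p = 0.989). Among those with the smallest p values were Rsph3b, a radial spoke gene, with a log2 fold change of -0.41 (SE 0.19, adjusted p = 0.949), and the adenylate kinase gene Ak8 with -0.41 (SE 0.24, adjusted p = 0.949).

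The 36 genes of primary cilia and intraflagellar transport, the cargo traffic that motile and primary cilia share, had antagomir replicate 1 as the lowest library in 25 of 36 cases, against 25.1% of all genes. Their median log2 CPM deviation was -0.37, 0.17 and 0.00 in antagomir replicates 1, 2 and 3, against -0.17, 0.20 and 0.15 in vehicle replicates 1, 2 and 3. Of the 36 genes 28 had negative log2 fold changes (77.8% against 50.9% of all genes, median -0.09), and 1 had an unadjusted p under 0.05 in edgeR (2.78% against 4.1%). Without antagomir replicate 1, 19 of 36 were negative and the median was -0.004, and without vehicle replicate 2 it was -0.03. The median was -0.18 without antagomir replicate 2 and -0.19 without vehicle replicate 1. The 9 ependymal genes listed apart from the cilium genes had a median log2 fold change of -0.21. Of them 7 were negative (77.8% against 50.9%) and 1 had an unadjusted p under 0.05 in edgeR (11.1% against 4.1%). That median was -0.02 without antagomir replicate 1, where 7 of the 9 were still negative (77.8% against 51.6% of all genes). The median was -0.34 with antagomir replicate 2 left out. With vehicle replicate 3 left out it was -0.06.

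Markers of other cells differed between the same libraries. The lists share genes: Aqp4 and S100b are among both the astrocyte and stem cell markers and the ependymal genes listed apart from the cilium genes. Cd24a is among both those ependymal genes and the neuroblast markers. The 10 neuroblast markers summed to 1996, 928 and 866 TPM in antagomir replicates 1, 2 and 3, against 1200, 554 and 564 TPM in vehicle replicates 1, 2 and 3. The neuroblast sum was highest in replicate 1 of each group, where the cilium sum was lowest in each group. The 10 microglia markers summed to 115, 161 and 279 TPM in antagomir replicates 1, 2 and 3, against 2072, 242 and 137 TPM in vehicle replicates 1, 2 and 3. The 10 oligodendrocyte markers summed to 11700, 16270 and 15507 TPM in antagomir replicates 1, 2 and 3, against 6868, 14882 and 10465 TPM in vehicle replicates 1, 2 and 3, and were thus also lowest in replicate 1 of each group. The oligodendrocyte sum was below the astrocyte and stem cell sum in vehicle replicate 1 and above it in every other library. Sums over different chosen genes do not measure the share of either cell type. The 14 astrocyte and stem cell markers given above had their lowest sum in antagomir replicate 2, a library in which the cilium genes were high. Of these 14, 13 had a negative log2 fold change (92.9% against 50.9% of all genes, median -0.22), 4 had an unadjusted p under 0.05 (28.6% against 4.1% of all genes) and 5 had groups that did not overlap, lower in antagomir (35.7% against 5.45%). In edgeR 0 of the 14 passed adjustment. Without antagomir replicate 1 their median was -0.31, without antagomir replicate 3 it was -0.36 and without antagomir replicate 2 it was -0.12. The 8 endothelial markers, of which 3 were tested, summed to 4.19 to 15.4 TPM in the 6 libraries. The part of these cell types in the cilium genes' course was not tested.

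Choroid plexus cells are also multiciliated and express Foxj1, so their markers were read as well. Of their 14 markers 11 were tested, and 7 of those had negative log2 fold changes (63.6% against 50.9% of all genes). The 14 summed to 78.3, 158 and 149.8 TPM in antagomir replicates 1, 2 and 3, against 98.1, 149 and 154 TPM in vehicle replicates 1, 2 and 3. The median log2 CPM deviation of the 11 was -0.78, 0.46 and -0.06 in antagomir replicates 1, 2 and 3, against -0.22, 0.20 and 0.38 in vehicle replicates 1, 2 and 3. That course was close to the course of the cilium genes. Ttr, which encodes transthyretin and is the most abundant choroid plexus transcript, was at 2.04, 0.533 and 0.0906 TPM in antagomir replicates 1, 2 and 3, against 0.594, 0 and 0 TPM in vehicle replicates 1, 2 and 3. The channel and transporter genes Kcnj13, Aqp1 and Slc4a5 reached at most 1.59, 0.585 and 0.266 TPM in any library. Ttr and these channel and transporter genes were thus low. Folr1 and Clic6, from the same list, averaged 69.4 and 27.1 TPM and held most of the sum, so the list as a whole was not near 0. The remaining markers of the list are not given singly here.

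**Figure D5:**
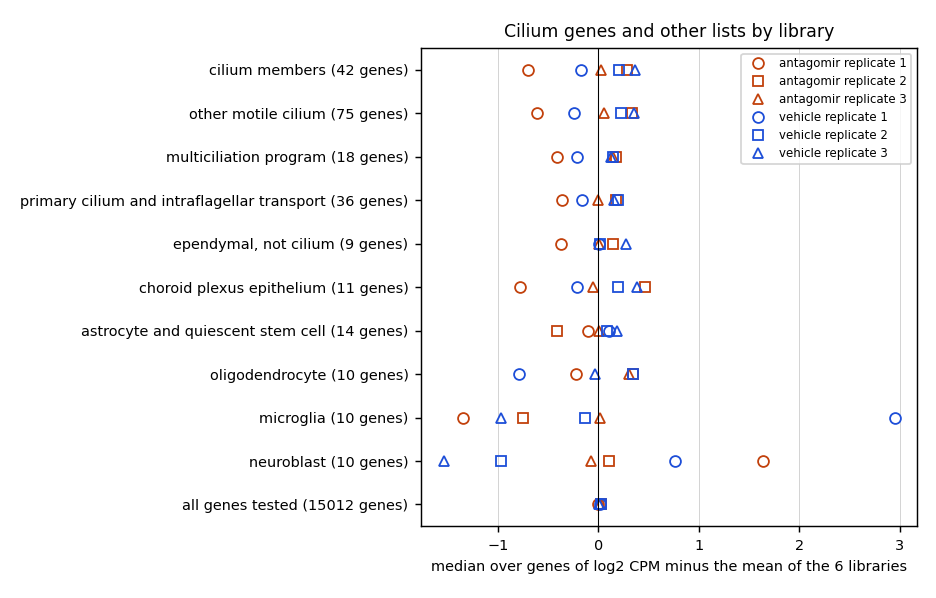
Median over the tested genes of each list of log2 CPM minus the gene's mean over the 6 libraries, with 1 point per library (antagomir in orange, vehicle in blue; the symbol gives the replicate). The cilium list and the other motile cilium genes share the order of libraries, from -0.70 in antagomir replicate 1 to 0.37 in vehicle replicate 3 for the list. The choroid plexus markers share that order except that antagomir replicate 2 (0.46) lies above vehicle replicate 3 (0.38). The neuroblast markers are highest in antagomir replicate 1.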

How the data were processed

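Per the labels' protocols, PicoPure RNA was turned into cDNA with a SMART-Seq kit for low input and read in pairs on a HiSeq. kallisto, sleuth and mm10 appear in the submitters' processing notes, and their versions are not given in the sources used here. Each deposited file gives, per the file headers, 1 row per transcript with kallisto's estimated count (an expected count, not normalized). The same rows give TPM, which the authors' run of kallisto scaled by effective length, per the file headers. Because kallisto splits ambiguous reads by a model, values of near-identical copies are uncertain. So are those of genes that overlap on opposite strands, since no strand setting is given.

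The treatment group characteristic set the groups, because the labels' treatment protocol names the antagomir for all 6 samples. Of 99567 transcripts, 98294 (98.7%) were found by identifier in GENCODE M21 (GRCm38). The 1273 not found, which held 0.524 to 0.586% of a library's counts, were dropped. Of the cilium genes 42 matched by symbol and 2, Dnai1 and Dnai2, through a RefSeq synonym. Counts were summed per gene and rounded to whole numbers. No 2 libraries were alike within sampling noise: the chi-square per gene was 23.7 to 98.7 over all pairs. The test was edgeR 4.0.16 under R 4.3.3 (TMM, filterByExpr with a minimum count of 10, robust quasi-likelihood fit, group as the only term), adjusted by Benjamini-Hochberg over 15012 genes with a threshold of 0.05. The SE is the log2 fold change divided by the square root of its F statistic. The common biological coefficient of variation was 36.2%, and intervals and floors of 3 counts cover counting error only. With 3 against 3 libraries an exact permutation test cannot go below a two-sided p of 0.1, so none was used. The fit was tested on simulated data. For deviations, CPM was put on a log2 scale after a prior count of 2 was added. Alternatives were other scalings, other filters, DESeq2 1.42.0, limma 3.58.1 (voom, and log2 of TPM plus 1 or 0.1), protein-coding transcripts alone, the replicate number as a block, and each library left out.

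The cilium genes and the other lists were chosen with earlier results of these data known. Fold changes are printed for the gene of highest mean TPM in each of the 8 cilium parts and for Foxj1, Rfx2 and Rfx3. They are also printed for the 4 tested genes with the smallest p. Mcidas, also taken, was tested only in alternative runs. Of the other motile cilium genes, the 3 of highest TPM and the 3 with the smallest p were taken, of which 1 is not reported here. Others named here by their values, such as Dnah12, Ccdc39, Dnah5, Tekt2 and Spag6l, lie outside that rule and were picked with their values in view.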

Additional observations from a re-analysis of the deposited data

How the results depend on the processing

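In every alternative run, 0 cilium genes were called, and edgeR and limma called 0 of all genes, while DESeq2 called 5 of 20802 genes. The number of cilium genes with a negative log2 fold change was 16 to 42 and their median -0.43 to 0.0351 when each library was left out, and the 16 and the 0.0351 came without antagomir replicate 1. Leaving out antagomir replicate 1 turned the direction, and leaving out vehicle replicate 3 moved the median to -0.09. Leaving out each library also turned the sign for single genes and lists. The log2 fold change ranged from -0.16 to 0.29 for Ccdc40, -0.43 to 0.0856 for Foxj1, -0.11 to 0.34 for Rfx3 and -0.30 to 0.0319 for Rsph1. The median ranged from -0.46 to 0.0669 for assembly factors, -0.58 to 0.0355 for the central apparatus, -0.56 to 0.0689 for dynein chains, -0.36 to 0.12 for radial spokes, -0.44 to 0.00208 for tektins and doublet proteins and -0.22 to 0.12 for transcription factors. It ranged from -0.36 to 0.0453 for other motile cilium genes, -0.15 to 0.14 for the multiciliation program, -0.57 to 0.0457 for choroid plexus markers and -1.73 to 0.16 for endothelial markers. Other settings that turned a sign were log2 of TPM plus 1 with no filter (transcription factors 0.0212, multiciliation 0.036), no filter on low counts (multiciliation 0.012), DESeq2 (multiciliation 0.0183), a mean count of at least 50 (choroid plexus 0.0448, endothelial 0.12) and protein-coding transcripts alone (Rfx3 -0.0278). The cause was not tested, except that the filters change which genes enter a list. With 1 library left out, Mcidas entered where that was antagomir replicate 1 or 3 or vehicle replicate 1 or 3. The 0.12 for transcription factors came without vehicle replicate 3. There Foxj1 was at -0.14, Rfx2 at -0.09, Rfx3 at 0.34 and Mcidas at 1.30. Without Mcidas the middle value would be that of Rfx2, -0.09.

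The labels do not say that equal replicate numbers mark a pair. The deviations of same-numbered libraries correlated at 0.195, 0.0749 and 0.0275 over 15012 genes, and not every library correlated best with its own number. With the replicate block in edgeR, 0 genes were called, 39 of 42 cilium genes were negative, their median was -0.27 and 9 of them had an unadjusted p under 0.05, against 1 without the block. Over all 15012 genes that count was 1284 with the block, against 616 (4.1%) without it. It rose by a larger factor among the cilium genes, which share the same 6 libraries, than over all genes.

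In the 250 bases before the start alone, an X-box pair was in 23.1% of the 39 cilium genes and the half-site in 43.6%. Depth limits Mcidas and Spag6, which did not pass the filter on low counts with all 6 libraries.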
